A study of Mus musculus with 10 samples.

Results

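The transcripts described here are probe sets of a mouse transcriptome array whose platform annotation gives no gene symbol and whose mean log2 signal reached 7 in at least 1 of the 4 groups of arrays. They numbered 7918, out of 33142 unnamed and 65956 transcript probe sets in all. The rule used the measured levels, so the levels and the counts of transcripts above 7 are descriptions and carry no test. The groups were CD4+ Foxp3+ regulatory T (Treg) cells of Il2ramut/mut mice (3 arrays) and of WT mice (3 arrays), and naive conventional CD4+ T (Tconv) cells of Il2ramut/mut mice (2 arrays) and of WT mice (2 arrays). All came from the lymph nodes of untreated female C57BL/6 mice aged 6 to 8 weeks that carried an RFP reporter at the Foxp3 locus on both alleles, and 50000 cells were sorted per sample, RFP+ for Treg and RFP-negative, CD25-negative, CD62L-high and CD44-low for Tconv. The Il2ramut/mut mice are homozygous for a spontaneous point mutation in Il2ra that was recovered from a Ccr2-deficient colony and bred away from the Ccr2 deletion, so other variants carried along from that colony cannot be told apart from the mutation. The study describes the replicates as separate mice while the sample labels give only a number, and the p-values measure the spread between these samples.

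Il2ra encodes CD25, the alpha chain that raises the affinity of the IL-2 receptor, and Treg cells depend on IL-2 made by other T cells. The array was designed to cover coding genes together with long noncoding RNAs, precursors of small RNAs, pseudogenes and transcript clusters known only from sequence assemblies. A probe set without a symbol can therefore be a noncoding RNA, an unannotated end or intron of a known gene, a gene copy or a repeat-derived sequence, and its name alone does not say which. Each identifier (ID) holds a chromosome and a running number, and the ending shared by all IDs is left off here. Among probe sets that name 1 gene, the numbers followed the gene order of the RefSeq table of GRCm38.p6 in 99.3% of neighbouring pairs on a strand, and the chromosome in the ID was that of the gene for 99.6%. The number was used to find the named genes next to an unnamed transcript and the side on which it lies. No gene name was given to a transcript from its place.

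The sequences of the transcripts themselves were not used here, since no genome of the files' build was at hand. 88 of the transcripts stood next in number to a miRNA gene found in a RefSeq table of miRNA sequences. Of these, 11 (12.5%) were called Treg against Tconv in both genotypes, beside 14.8% of the 7918 and 6.02 percent of all probe sets. For 10 of the 11 the neighbouring gene has a mature sequence in the table, and these were 5 higher and 5 lower. Not every miRNA gene on the array was covered in this way, so the counts are incomplete. TC0200000118 and TC0200000123, next to Mir669a-4 and Mir669a-5 and called lower in both genotypes, are not among the 10. MiRNAs are short RNAs cut from longer hairpin precursors, and their seed, bases 2 to 8 of the mature strand, pairs with target RNAs. The mature sequences of the 3 neighbours with the largest differences are printed to identify those loci, a choice made after the values were seen. They are given 5′ to 3′ from RefSeq GRCm38.p6, all on the plus strand, with the seed in capitals.
mmu-miR-139-5p (chr7:101475382-101475403): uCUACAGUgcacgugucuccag
mmu-miR-139-3p (chr7:101475418-101475439): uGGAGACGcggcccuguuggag
mmu-miR-1192 (chr19:23149450-23149471): aAACAAACaaacagaccaaauu
mmu-miR-491-5p (chr4:88122057-88122078): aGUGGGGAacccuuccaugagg
mmu-miR-491-3p (chr4:88122091-88122112): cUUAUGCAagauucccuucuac
No 2 of these strands share a seed.

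TC0700001434, which stands next to Mir139, read 12.03, 12.67 and 12.27 (log2 signal) in Il2ramut/mut Treg arrays, 11.82, 12.35 and 12.23 in WT Treg arrays, 8.38 and 8.58 in Il2ramut/mut Tconv arrays, and 8.65 and 8.90 in WT Tconv arrays. Every Treg array lay above every Tconv array, and the genotypes overlapped in Treg cells. The difference of Treg and Tconv cells was 3.84 ± 0.21 on the log2 scale (SE; limma adjusted p = 1.65e-06) in Il2ramut/mut mice and 3.36 ± 0.21 (adjusted p = 5.23e-06) in WT mice. The probe set of the Mir139 hairpin itself averaged 6.58, 6.70, 6.61 and 6.65 in the 4 groups in the same order. Thus the unnamed transcript differed between the cell types, and for the hairpin probe set beside it the difference was -0.02 in Il2ramut/mut mice and 0.05 in WT mice. TC1900000375, next to Mir1192, was higher in Treg cells by 3.11 ± 0.26 in Il2ramut/mut mice (adjusted p = 4.03e-05) and by 3.00 ± 0.26 in WT mice (adjusted p = 6.31e-05), and here the Mir1192 probe set was higher as well, by 1.26 and 1.59. TC0400000885, next to Mir491, ran the other way. It read 6.25, 7.39 and 6.96 in Il2ramut/mut Treg arrays, 6.65, 5.98 and 5.92 in WT Treg arrays, 8.91 and 8.57 in Il2ramut/mut Tconv arrays, and 8.27 and 8.52 in WT Tconv arrays, with differences of -1.88 ± 0.31 (adjusted p = 0.00368) and -2.21 ± 0.31 (adjusted p = 0.00172) of Treg and Tconv cells in Il2ramut/mut and WT mice. The other 7 of these 10 transcripts stood next to Mir669n, Mir29b-1, Mir7015, Mir466q, Mir340, Gm24195 and Mir7061, with differences between -1.16 and 1.00 in WT mice. TC1900000375 averaged 7 or more only in the Treg groups. TC0400000885 and the transcripts beside Mir669n and Mir340 did so only in the Tconv groups. These transcripts passed the threshold through the cell type in which they were high. They had to differ between the cell types, so their p-values carry no separate support.

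Over the whole series, the 10 arrays were close to each other in scale. The median over all 65956 probe sets lay between 4.97 and 5.13 on every array, and the background, taken as the 95th percentile of 23 antigenomic control probe sets, between 4.98 and 5.54. The 17 measured genes of a Treg marker list averaged 12.61 to 12.64 in Il2ramut/mut Treg arrays and 12.27 to 12.44 in WT Treg arrays, and between 7.41 and 7.51 in all Tconv arrays. Foxp3 and Nrp1 had no probe set naming them alone. Of the 12 measured genes of each list, 6 B cell and 6 myeloid genes were at background on all arrays. The Il2ra probe set read 14.92 to 15.31 in Treg arrays and 6.04 to 6.48 in Tconv arrays, and since the mutation changes a base without removing the transcript, it does not check the genotype labels. Of the lists of other cell types, 2 of the 12 B cell genes were called higher in Treg than in Tconv cells of both genotypes: Cd79b, a B cell receptor subunit, by 1.64 in Il2ramut/mut mice and 1.43 in WT mice, and Cd22, a B cell inhibitory receptor, by 0.82 and 1.54. The B cell list averaged 5.26 to 5.29 in Il2ramut/mut and 5.31 to 5.34 in WT Treg arrays, and 5.05 to 5.08 in Il2ramut/mut and 5.14 to 5.21 in WT Tconv arrays. Of the 5 NK genes, 2 were called higher and 1 lower in Treg cells of Il2ramut/mut mice. In WT mice it was 1 higher and 1 lower. The NK list averaged 6.22 to 6.39 in Il2ramut/mut and 6.04 to 6.28 in WT Treg arrays. In Tconv arrays it averaged 5.45 to 5.55 in Il2ramut/mut and 5.47 to 5.68 in WT mice. Called lower were 1 of the 12 myeloid genes in Il2ramut/mut mice and 2 in WT mice, and 1 of the 6 stroma genes in each. The part of these lists in the differences of unnamed transcripts was not tested.

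The unnamed transcripts were detected in nearly all arrays. On each array between 98.98% and 99.90% of them exceeded the background. 6317 (79.8%) reached a mean of 7 in all 4 groups, while 466 did so in 1 group, 708 in 2 and 427 in 3. Of the 708, 285 did so in the 2 Treg groups and 306 in the 2 Tconv groups, and these had to differ between the cell types. The highest group mean of a transcript ranged from 7.0 to 19.77 with a median of 9.16, beside a median of 9.52 over the 10772 probe sets that name 1 gene and pass the same threshold. Signal depends on the probes of each set, so these levels rank no transcript against another. At the upper end of the scale, 391 unnamed transcripts (4.94%) had a group mean of 16 or more, against 347 (3.22%) of the named ones.

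**Figure D1:**
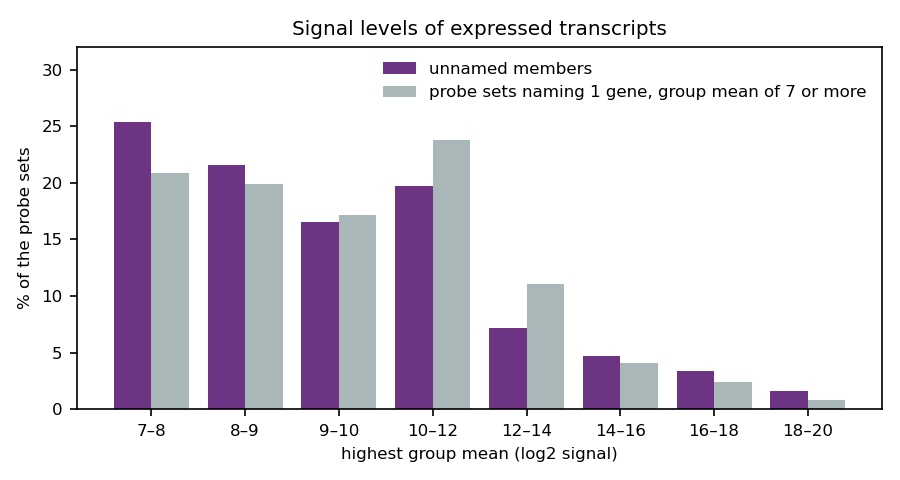
Percent of probe sets (y axis) by highest group mean in log2 signal (x axis, in steps of 1 up to 10 and of 2 above), for the 7918 unnamed transcripts and the 10772 probe sets that name 1 gene and reach 7. The lowest step holds 25.4% of the unnamed and 20.9% of the named, and the highest step 1.62% and 0.817%.

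The transcripts with the highest means lay within a narrow range on all arrays, at the upper end of the scale, and whether the array can register a difference there was not tested. TC1600002087, TC0200000731, TC0100002078, TC1500000918, TC0200002916 and TC1700001553 read between 19.20 and 19.86 on all 10 arrays, and none was called in any comparison. The transcript with the highest mean, TC1600002087, read 19.74, 19.75 and 19.77 in Il2ramut/mut Treg arrays, 19.72, 19.79 and 19.77 in WT Treg arrays, 19.60 and 19.86 in Il2ramut/mut Tconv arrays, and 19.77 and 19.77 in WT Tconv arrays. Its groups overlapped, and the wider spread of the Il2ramut/mut Tconv arrays covered all the others. Among transcripts of mean 10 or more, TC1700001077 had 1 of the 5 smallest ranges, with 14.21 to 14.35 over the 10 arrays. Just inside the threshold stood TC0300002247, TC0500000275 and TC0X00001308, whose highest group means all rounded to 7.0, and just outside it TC0200000179, TC0400002192 and TC0500003537, also at 7.0 after rounding.

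In Treg cells the mutation went with 55 called transcripts, 17 higher and 38 lower in Il2ramut/mut than in WT cells (limma, adjusted p under 0.05). That was 0.695% of the 7918, beside 0.373 percent of all 65956 probe sets (0.171 percent higher and 0.202 percent lower). Among the 6317 at 7 or more in all 4 groups, 25 were called (0.396%), 5 higher and 20 lower. The other 30 calls were among the 1601 under 7 in 1 to 3 groups, where a transcript that passed only through the group in which it is high had to differ. Of the 10772 probe sets that name 1 gene at 7 or more in at least 1 group, 117 were called (1.09%), 63 higher and 54 lower. Of the 9438 at 7 or more in all 4 groups, 48 were called (0.509%), 22 higher and 26 lower. Both shares were above those of the unnamed transcripts. The median difference of Il2ramut/mut and WT Treg cells was -0.09 over the unnamed transcripts, -0.04 over those named ones and -0.00 over all probe sets. Several marker lists moved in the same comparison. Of 17 effector Treg genes 10 were called higher (list mean 10.21 to 10.40 in Il2ramut/mut Treg arrays, against 8.97 to 9.09 in WT Treg arrays), of 16 proliferation genes 6 were called higher (7.08 to 7.37, against 6.45 to 6.64), and of 16 naive T cell genes 5 were called lower (10.69 to 10.94, against 11.27 to 11.42). Their part in the calls among unnamed transcripts was not tested, and in such bulk samples fewer cells of a type and less RNA per cell cannot be told apart. The number of calls rested on every Treg array: without WT Treg replicate 2 it was 6, without Il2ramut/mut Treg replicate 3 it was 11, without WT Treg replicate 3 it was 14, without Il2ramut/mut Treg replicate 1 it was 19, without WT Treg replicate 1 it was 24 and without Il2ramut/mut Treg replicate 2 it was 25. TC0100000298, TC0700003759, TC1500001375 and TC1700002268 stayed called whichever of the 10 arrays was left out.

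**Figure D2:**
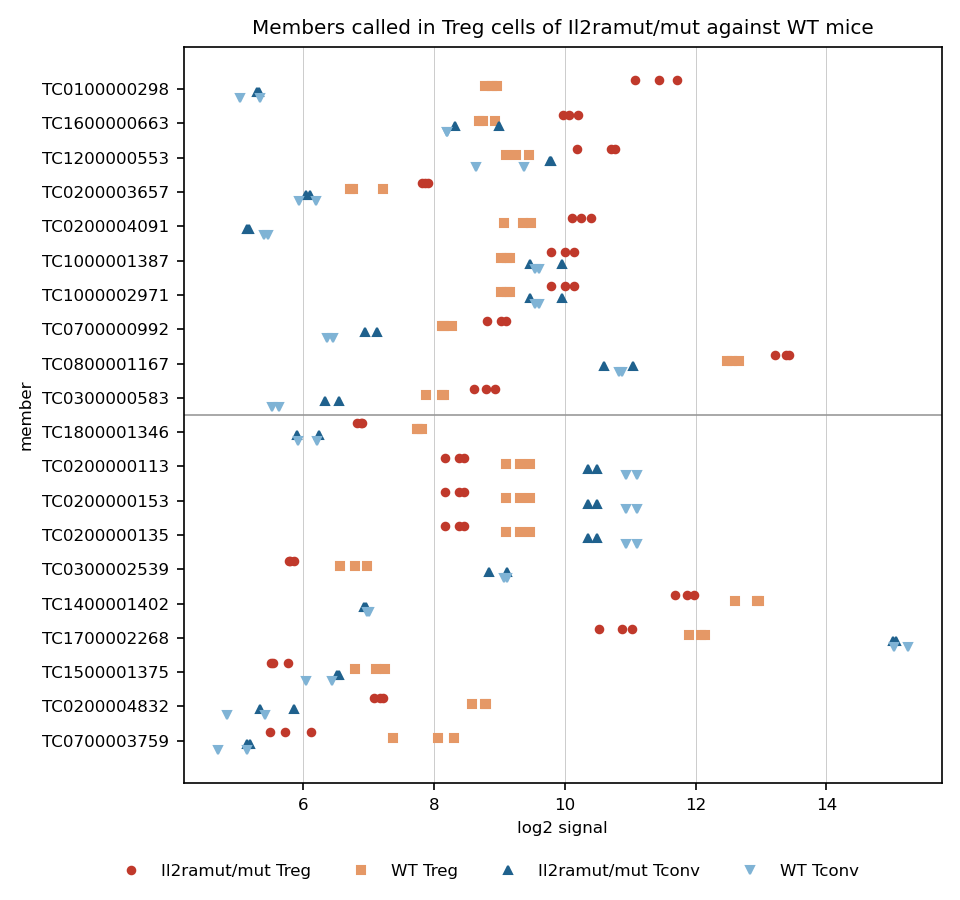
Log2 signal (x axis) on each of the 10 arrays for the 10 transcripts of lowest p called higher (upper part) and the 10 called lower (lower part) in Il2ramut/mut against WT Treg cells, 1 symbol per array. In every row the Il2ramut/mut Treg and WT Treg arrays do not overlap, from TC0100000298 (11.07 to 11.71, against 8.78 to 8.96) to TC0700003759 (5.49 to 6.12, against 7.38 to 8.31).

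Of the transcripts higher in Il2ramut/mut Treg cells, TC0100000298 had the lowest p. It read 11.07, 11.44 and 11.71 in Il2ramut/mut Treg arrays, 8.96, 8.88 and 8.78 in WT Treg arrays, 5.29 and 5.33 in Il2ramut/mut Tconv arrays, and 5.04 and 5.34 in WT Tconv arrays. The 3 Il2ramut/mut Treg arrays stood apart above the WT Treg arrays, and the Tconv arrays lay near background. The difference was 2.53 ± 0.15 in Treg cells, a 5.79-fold higher signal (adjusted p = 0.000843). Its number falls between Il1rl2 and Il18r1, and the study's supplementary lists name the probe set Il1rl1, the receptor for the alarmin IL-33, so it lacks a symbol only in the platform table. Il18r1, a chain of the IL-18 receptor, differed by 0.24 (adjusted p = 0.748) and Il1rl2 by -0.12 (adjusted p = 0.915).

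TC0200004091, TC0200004092 and TC0200004094 follow Ptprj on its 5′ side. Ptprj encodes CD148, a receptor tyrosine phosphatase, and its own probe set was higher in Il2ramut/mut than in WT Treg cells by 1.21 (adjusted p = 0.0138). TC0200004091 read 10.24, 10.11 and 10.40 in Il2ramut/mut Treg arrays, 9.07, 9.36 and 9.48 in WT Treg arrays, 5.18 and 5.14 in Il2ramut/mut Tconv arrays, and 5.46 and 5.41 in WT Tconv arrays. Thus the genotypes were separate in Treg cells, and all 4 Tconv arrays were near background. The differences in Treg cells were 0.94 ± 0.12 (adjusted p = 0.0138) for TC0200004091, 1.05 ± 0.18 (adjusted p = 0.0482) for TC0200004092 and 1.16 ± 0.19 (adjusted p = 0.0402) for TC0200004094. Another transcript beside a gene that was itself higher was TC1600000663, next to Cd200r1, an inhibitory receptor of leukocytes. It read 10.20, 10.06 and 9.97 in Il2ramut/mut Treg arrays, 8.69, 8.93 and 8.75 in WT Treg arrays, 8.32 and 9.0 in Il2ramut/mut Tconv arrays, and 8.20 and 8.20 in WT Tconv arrays. Here the WT Treg arrays lay in the range of the Tconv arrays, and only the Il2ramut/mut Treg arrays stood above it. The Treg differences were 1.29 ± 0.16 (adjusted p = 0.0134) for the transcript and 1.24 (adjusted p = 0.00836) for Cd200r1.

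The other called transcripts that were higher in Il2ramut/mut Treg cells had differences from 0.55 to 1.34. TC0700000992 lies on the 3′ side of Chsy1, a chondroitin sulfate synthase, and was higher by 0.79 ± 0.10 (adjusted p = 0.0138), with Chsy1 higher by 0.93 (adjusted p = 0.0496). In contrast, TC1000001387 and TC1000002971, whose values were identical on all arrays, were higher in Il2ramut/mut Treg cells (9.78 to 10.14) than in WT Treg cells (9.02 to 9.16), by 0.88 ± 0.14 (adjusted p = 0.034), with Tconv arrays between 9.47 and 9.96. They number near Il22 and near its copy Iltifb, genes of the cytokine IL-22. Il22 differed by -0.05 and Iltifb by 0.02 in Treg cells, neither called.

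Of the transcripts lower in Il2ramut/mut Treg cells, several stood beside genes that were lower in Treg than in Tconv cells. TC1700002268 follows Satb1, a genome organizer of T cells, on its 5′ side. It read 11.02, 10.53 and 10.87 in Il2ramut/mut Treg arrays, 12.08, 11.90 and 12.15 in WT Treg arrays, 15.01 and 15.07 in Il2ramut/mut Tconv arrays, and 15.03 and 15.24 in WT Tconv arrays. The 3 levels were separate, lowest in Il2ramut/mut Treg cells, higher in WT Treg cells and highest in Tconv cells of both genotypes. The Treg difference was -1.24 ± 0.13, 2.36-fold lower (adjusted p = 0.00919), that of the next transcript TC1700002269 was -1.20 ± 0.21 (adjusted p = 0.0542), and that of Satb1 itself -0.72 (adjusted p = 0.124). TC0600003384, on the 5′ side of St8sia1, which encodes a ganglioside synthase, read 8.69, 8.72 and 8.45 in Il2ramut/mut Treg arrays, 9.53, 9.42 and 9.96 in WT Treg arrays, 11.65 and 11.93 in Il2ramut/mut Tconv arrays, and 11.74 and 11.70 in WT Tconv arrays. It showed the same order without overlap between the Treg groups. Its Treg difference was -1.02 ± 0.15 (adjusted p = 0.0256), and that of St8sia1 was -1.30 (adjusted p = 0.0119). TC0100003423, on the 5′ side of Atp1b1, a sodium pump subunit, differed by -0.83 (adjusted p = 0.0432) beside -1.30 (adjusted p = 0.0437) for Atp1b1.

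For TC0700003759, TC0200004832 and TC1500001375, also lower, the next named gene on either side was called neither between the genotypes in Treg cells nor lower in Treg than in Tconv cells of WT mice. TC0700003759 read 5.49, 5.72 and 6.12 in Il2ramut/mut Treg arrays, 8.06, 7.38 and 8.31 in WT Treg arrays, 5.14 and 5.19 in Il2ramut/mut Tconv arrays, and 4.70 and 5.14 in WT Tconv arrays. Only the WT Treg arrays stood above 7, so it passed the level threshold through the group in which it was high, as did TC1500001375. Its difference was -2.14 ± 0.24 (adjusted p = 0.0111), and the study's lists give it as Gm25712, of a ribosomal class. TC0200004832 differed by -1.56 ± 0.17 (adjusted p = 0.00919) and TC1500001375 by -1.44 ± 0.14 (adjusted p = 0.00836). Next in number to TC0200004832 is TC0200004831, which has no symbol in the platform table. The study's lists name it Gm21994 and class it as coding, and it was itself called lower, with a difference of -0.87 (adjusted p = 0.0312). TC1500001375 read 5.51, 5.78 and 5.54 in Il2ramut/mut Treg arrays, 7.25, 7.11 and 6.80 in WT Treg arrays, 6.54 and 6.52 in Il2ramut/mut Tconv arrays, and 6.44 and 6.05 in WT Tconv arrays. Unlike the transcripts beside Satb1 and St8sia1, its Tconv arrays lay between the Treg groups. 6 of the 55 calls carried chromosome 14 in their ID, all lower, and each lay within 2 numbers of a named gene that was itself called lower in Il2ramut/mut than in WT Treg cells. TC1400001402, which the study's lists name Gm8237 and class as coding, differed by -0.99 ± 0.12 (adjusted p = 0.0119), and Gm3248 beside it by -0.94 (adjusted p = 0.0388). TC1400001412 and TC1400001413 follow Gm3594, which differed by -0.94 (adjusted p = 0.0319). The gene beside TC1400001428 was Gm10128 (-1.07, adjusted p = 0.0215), that beside TC1400002844 was Gm3411 (-1.02, adjusted p = 0.0119) and that beside TC1400000023 was Gm3159 (-0.96, adjusted p = 0.0138). Signal of these transcripts was not separated from that of the genes beside them.

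TC0200000113, TC0200000135 and TC0200000153 had identical values, and the study's lists class them as precursors of microRNA. They lie among numbers of the Mir669 and Mir467 families, a repeated cluster of miRNA genes on chromosome 2, and since identical values mean shared probe content they count as 1 measurement. The shared value was 8.16, 8.46 and 8.39 in Il2ramut/mut Treg arrays, 9.32, 9.47 and 9.11 in WT Treg arrays, 10.49 and 10.36 in Il2ramut/mut Tconv arrays, and 11.10 and 10.94 in WT Tconv arrays. No 2 groups overlapped. The genotype difference was -0.96 ± 0.12 (adjusted p = 0.0134) in Treg cells and -0.59 (adjusted p = 0.48) in Tconv cells. The genes on either side of TC0200000113 were not called in Treg cells: Mir669g differed by -0.57 (adjusted p = 0.443) and Mir669j by -0.75 (adjusted p = 0.269). TC0200000088, TC0200000118, TC0200000123 and TC0200000171, of the same class and chromosome, differed by -0.93 to -0.62 and were not called (adjusted p = 0.0577 to 0.117). With identical values counted once, the calls in Treg cells numbered 52, 16 higher and 36 lower.

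The study's supplementary lists give a class for 128 of the 7918 transcripts, 98 of them noncoding and 15 coding, and a symbol for 36. Those lists hold probe sets the study selected on these samples, so the share with a class among called transcripts (47 of the 55, 33 noncoding and 15 with a symbol) is no feature of the calls. Without the transcripts given a symbol there, 40 were called in Treg cells, 14 higher and 26 lower.

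In Tconv cells, by contrast, 1 unnamed transcript was called between the genotypes, beside 0.00303 percent of all probe sets. An unadjusted limma p under 0.05 was found for 1136 of the 7918. The same held for 4674 of all 65956 probe sets and for 921 of the 10772 that name 1 gene at 7 or more. TC1000002261 stands on the 5′ side of Srgn, which encodes the granule proteoglycan serglycin. It read 12.93 and 12.93 in Il2ramut/mut Tconv arrays and averaged 10.86 ± 0.19 in WT Tconv arrays (SD, n = 2), with 12.77, 12.32 and 12.96 in Il2ramut/mut Treg arrays and 12.26, 12.07 and 12.09 in WT Treg arrays. The WT Tconv arrays stood apart below all the others. The difference in Tconv cells was 2.07 ± 0.19, 4.20-fold higher (adjusted p = 0.0344), while Srgn differed by 0.02 (adjusted p = 0.992). An early response gene list separated the same arrays, with means of 8.36 to 8.48 in Il2ramut/mut Tconv arrays and 7.56 to 7.89 in WT Tconv arrays, and its part in the value was not tested. The call was lost when any array but Il2ramut/mut Treg replicate 2 was left out. The next transcript by p in this direction, TC1100000806, differed by 1.37 ± 0.17 (adjusted p = 0.149), and on the other side TC0200002311 differed by -1.07 ± 0.16 (adjusted p = 0.194).

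The genotype effect was also compared between the cell types by an interaction term, the Treg difference minus the Tconv difference. No unnamed transcript was called by limma, beside 0.00152 percent of all probe sets. An unadjusted p under 0.05 was found for 1159 of the 7918, for 4301 of all 65956 probe sets and for 891 of the 10772 that name 1 gene at 7 or more. The lowest p were those of TC0100000298, with an interaction of 2.42 ± 0.24 (adjusted p = 0.0786), and of TC0800000428 and TC1200002055. TC0800000428 read 7.74, 7.77 and 7.85 in Il2ramut/mut Treg arrays, 8.28, 8.36 and 8.27 in WT Treg arrays, 9.39 and 9.47 in Il2ramut/mut Tconv arrays, and 8.93 and 8.84 in WT Tconv arrays. It was lower in the mutant Treg arrays and read higher in the mutant Tconv arrays, without overlap in either. Its interaction was -1.06 ± 0.12 (adjusted p = 0.0786), and it numbers near Mfhas1, a signaling protein gene.

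Cell type separated far more unnamed transcripts than genotype did. Treg against Tconv cells, 2181 were called in Il2ramut/mut mice (27.5%, beside 11.3 percent of all probe sets), 731 higher (beside 5.43 percent) and 1450 lower (beside 5.91 percent), and 1465 in WT mice (18.5%, beside 7.89 percent), 685 higher (beside 4.37 percent) and 780 lower (beside 3.52 percent). The 6317 at 7 or more in all groups gave 1531 calls in Il2ramut/mut mice, 407 higher and 1124 lower, and 938 in WT mice, 373 higher and 565 lower. Of the 10772 named probe sets at 7 or more in at least 1 group, 27.85% were called in Il2ramut/mut mice and 21.9% in WT mice. The unnamed transcripts thus had no larger share of calls than named ones under the same threshold. The named calls leaned the other way, with 1862 higher and 1138 lower in Il2ramut/mut mice and 1489 higher and 872 lower in WT mice. With each array centred on its own median, the unnamed calls in WT mice were 728 higher and 583 lower, so the direction of the majority there depends on the scaling, whereas in Il2ramut/mut mice they were 779 higher and 1112 lower. Median differences over the unnamed transcripts were -0.18 in Il2ramut/mut mice and -0.12 in WT mice, against -0.08 for each over all probe sets. Called in both genotypes were 1173 (14.8%, beside 6.02 percent of all probe sets), of which 546 were higher and 624 lower in Treg cells in both, and 3 in opposite directions. Of the 16 proliferation genes, 13 were called higher in Treg cells of Il2ramut/mut mice and 10 in those of WT mice (list mean 7.08 to 7.37 and 6.45 to 6.64 in Il2ramut/mut and WT Treg arrays, 5.86 to 5.87 and 5.77 to 5.79 in Il2ramut/mut and WT Tconv arrays). Of 15 early response genes, 4 were called higher and 3 lower in Il2ramut/mut mice, and 7 higher and 1 lower in WT mice. That list averaged 8.57 to 8.63 and 8.48 to 8.59 in Il2ramut/mut and WT Treg arrays. In Il2ramut/mut and WT Tconv arrays it averaged 8.36 to 8.48 and 7.56 to 7.89. The part of both lists in these calls was not tested.

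Among the transcripts higher in Treg cells, TC0100002535 stands next to Ikzf2, the gene of Helios, a transcription factor typical of Treg cells. It read 13.53, 13.12 and 13.20 in Il2ramut/mut Treg arrays, 12.54, 12.64 and 12.40 in WT Treg arrays, 6.02 and 5.30 in Il2ramut/mut Tconv arrays, and 5.85 and 5.76 in WT Tconv arrays. The cell types lay far apart and the Treg genotypes, which did not overlap, differed by 0.75 (adjusted p = 0.16). Treg and Tconv cells differed by 7.62 ± 0.20 (adjusted p = 1.21e-08) in Il2ramut/mut mice and by 6.72 ± 0.20 (adjusted p = 2.44e-08) in WT mice, beside 8.60 and 7.94 for Ikzf2 itself. TC1300001177, which the study's lists name 2610204G07Rik, was not above background on any Tconv array. Its signal was at least 123-fold higher in Treg cells of Il2ramut/mut mice (adjusted p = 9.49e-09) and at least 77.8-fold higher in WT mice (adjusted p = 1.58e-08), where the background of each array stands in for the dimmer group. TC1200002513, on the 5′ side of the integrin gene Itgb8, was at least 32.1-fold and 31.6-fold higher in the same way, and Itgb8 differed by 5.56 and 5.23 on the log2 scale. TC0100002535 and TC1300001177 averaged 7 or more only in the Treg groups. Such transcripts had to differ between the cell types, so their p-values carry no separate support.

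For other transcripts of this kind the nearest named genes were not called. TC0800001595 and TC0800001596 lie 9 and 10 numbers past Pard3, a polarity gene that differed by -0.01 in WT mice. TC0800001595 read 13.23, 13.48 and 13.38 in Il2ramut/mut Treg arrays, 13.06, 13.45 and 13.14 in WT Treg arrays, 6.19 and 5.92 in Il2ramut/mut Tconv arrays, and 6.58 and 6.25 in WT Tconv arrays. Treg and Tconv cells differed by 7.31 ± 0.15 (adjusted p = 6.66e-09) in Il2ramut/mut mice and by 6.80 ± 0.15 (adjusted p = 4.55e-09) in WT mice, and the Treg genotypes overlapped. TC0800001595 too averaged 7 or more only in the Treg groups, so it had to differ. TC0300001012, between Gm12490 and Igsf3, differed by 7.18 ± 0.39 and 6.05 ± 0.39 in the 2 genotypes, and those genes by -0.04 and 0.21 in WT mice. By contrast, beside Ccr8, a chemokine receptor of effector Treg cells, TC0900001593 differed by 5.05 ± 0.30 and 4.83 ± 0.30, and beside the transcription factor gene Maf, TC0800002993 differed by 5.06 ± 0.22 and 4.63 ± 0.22.

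On the side lower in Treg cells, TC0700001670 and TC0700001671 follow Pde3b, a phosphodiesterase that breaks down cyclic AMP. TC0700001670 read 4.92, 4.65 and 4.72 in Il2ramut/mut Treg arrays, 5.06, 5.41 and 4.94 in WT Treg arrays, 10.33 and 11.14 in Il2ramut/mut Tconv arrays, and 10.01 and 10.07 in WT Tconv arrays. None of the 3 Il2ramut/mut Treg arrays and 1 of the 3 WT Treg arrays exceeded background, and the Tconv arrays lay far above it. TC0700001670 passed the level threshold only through the Tconv groups, so it had to differ between the cell types. The signal was at least 43.4-fold lower in Treg cells of Il2ramut/mut mice (adjusted p = 1.31e-07), and the log2 difference in WT mice was -4.91 ± 0.22 (adjusted p = 5.75e-07), where 2 of the 3 Treg values were at background, and Pde3b differed by -7.78 and -6.72 on the log2 scale. A run of 7 transcripts from TC1000000253 to TC1000000259 follows Themis, a regulator of T cell receptor signaling in thymocytes, on its 3′ side. All 7 were called lower in both genotypes, by 2.46 to 4.82 on the log2 scale in Il2ramut/mut mice and by 2.04 to 3.96 in WT mice, where Themis itself differed by -3.97 and -3.5. TC1700002271, the fourth number past Satb1, differed by -4.50 ± 0.25 and -3.53 ± 0.25 in the 2 genotypes, and TC1100000133, on the 5′ side of Ikzf1, which encodes the lymphoid transcription factor Ikaros, by -4.84 ± 0.24 and -3.85 ± 0.24.

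Within 2 numbers of a gene of the marker lists lay 63 of the unnamed transcripts. Of the 21 near a naive T cell gene, 16 were called lower in Treg than in Tconv cells of Il2ramut/mut mice and 13 in WT mice, and none higher in either. Near an effector Treg gene lay 5, of which 4 were called higher in each genotype and none lower, and near a gene of the Treg list 9, of which 4 were called higher and 1 lower in Il2ramut/mut mice and 3 higher and none lower in WT mice. Over all 7918, 18.3% were called lower and 9.23% higher in Il2ramut/mut mice, and 9.85% lower and 8.65% higher in WT mice. Of the 5 near a T cell gene, 3 were called lower in Il2ramut/mut mice and none in WT mice. Near the other lists the calls were few: 1 higher in each genotype of 6 near an early response gene and of 2 near a proliferation gene, 1 higher in WT mice of 4 near an IL-2 and STAT5 gene, and in Il2ramut/mut mice 1 higher beside an erythroid gene and 1 lower beside an NK cell gene. None of the 3 near a myeloid, 5 near a stroma and 1 near a CD8 gene was called, and none lay near a B cell gene. TC0300001331, on the 3′ side of Lef1, a transcription factor of naive T cells, read 11.39, 11.54 and 11.43 in Il2ramut/mut Treg arrays, 12.38, 12.30 and 11.75 in WT Treg arrays, 15.30 and 15.47 in Il2ramut/mut Tconv arrays, and 14.96 and 14.94 in WT Tconv arrays. The cell types were far apart, and within each the genotypes did not overlap. Treg and Tconv cells differed by -3.93 ± 0.17 in Il2ramut/mut mice (adjusted p = 3.75e-07) and by -2.80 ± 0.17 in WT mice (adjusted p = 4.58e-06), beside -3.0 and -2.58 for Lef1. TC0400000256, on the 3′ side of Bach2, a transcriptional repressor that restrains effector programmes, is named Bach2it1 and classed as noncoding in the study's lists, and differed by -3.03 ± 0.18 and -1.88 ± 0.18 in Il2ramut/mut and WT mice. Proximity to a marker gene did not go with a difference everywhere: TC1100001014, next to the integrin gene Itgae, averaged 8.81 and 8.75 in Il2ramut/mut and WT Treg cells and 8.79 and 8.58 in Il2ramut/mut and WT Tconv cells. TC0200000221, between Il2ra and Il15ra on the 3′ side of Il2ra, read 7.55, 6.88 and 7.28 in Il2ramut/mut Treg arrays, 6.70, 5.99 and 6.66 in WT Treg arrays, 6.05 and 5.58 in Il2ramut/mut Tconv arrays, and 5.83 and 5.88 in WT Tconv arrays. It was called higher in Treg cells of Il2ramut/mut mice, by 1.42 ± 0.25 (adjusted p = 0.00514), with 0.59 ± 0.25 (adjusted p = 0.224) in WT mice and a genotype difference in Treg cells of 0.79 (adjusted p = 0.266). TC0200000221 passed the level threshold only through the Il2ramut/mut Treg group, in which it was high.

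The neighbouring gene was then compared with the transcript over all such pairs. 3657 pairs of an unnamed transcript and the named gene next in number, with the gene also at 7 or more in a group, covered 3221 transcripts and 3266 genes. Across pairs, the Treg against Tconv differences of transcript and gene correlated with Pearson r = 0.545 in Il2ramut/mut mice and r = 0.576 in WT mice. These are descriptions over pairs that share arrays and, in part, genes and transcripts, so they are not independent replicates. Both were called in 523 pairs in Il2ramut/mut mice, in the same direction in 470 (89.9%), and in 411 pairs in WT mice, in the same direction in 386 (93.9%). By side, r was 0.599 for the 1381 transcripts on the 3′ side and 0.558 for the 1176 on the 5′ side in WT mice. For Il2ramut/mut against WT, r was 0.310 in Treg cells, where both were called in 10 pairs, all in the same direction, and 0.137 in Tconv cells. Antisense or read-through signal of the neighbouring gene was not separated from signal of the transcript itself.

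**Figure D3:**
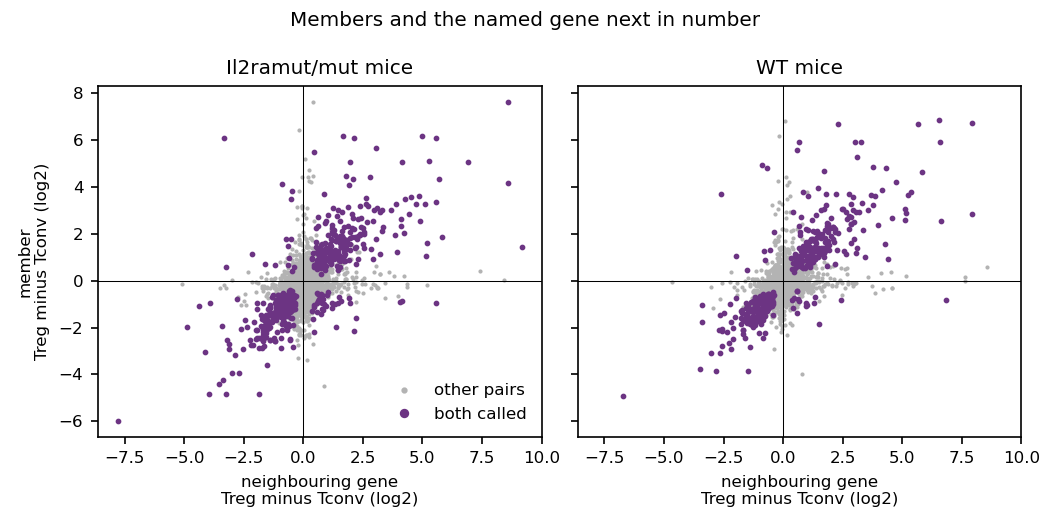
Difference of Treg and Tconv cells (log2) of the named gene next in number (x axis) and of the unnamed transcript (y axis), for Il2ramut/mut mice (left) and WT mice (right), 1 point per pair of 3657. Points where both were called fall mainly in the upper right and lower left, with 470 of 523 in Il2ramut/mut mice and 386 of 411 in WT mice in the same direction.

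Unnamed transcripts with consecutive numbers formed 491 runs of 3 or more, which held 1951 of the 7918 (24.6%). In 21 runs every member was called higher in WT Treg than WT Tconv cells, and in 21 every member was called lower. The longest run had 13 transcripts after Tcf12, a basic helix-loop-helix factor gene, and 5 of them were called lower in Treg than in Tconv cells of Il2ramut/mut mice and 3 in WT mice. Of the 12 between Aff3 and Lonrf2, 5 were called lower in Il2ramut/mut mice and 1 in WT mice. The 11 from TC0200000742 to TC0200000752, after Arhgap15, moved together: all 11 were called lower in Il2ramut/mut mice, by 1.12 to 2.13 on the log2 scale, and 10 in WT mice, where the differences were -2.04 to -0.63. The genotype differences of those 11 in Treg cells were between -0.19 and 0.23, and none was called. Of the 7 runs of 10, the first by ID, after the activin receptor gene Acvr2a, was mixed. Its first member, TC0200000782, was higher in Treg cells by 1.98 ± 0.31 in Il2ramut/mut mice (adjusted p = 0.00248) and by 1.42 ± 0.31 in WT mice (adjusted p = 0.0208), and the sixth, TC0200000787, was lower by 0.74 in Il2ramut/mut mice (adjusted p = 0.0199), while the other 8 were called in neither genotype. TC0200000782 averaged 7 or more only in the Treg groups, so it had to differ. A run of 9 between Gm7658 and Rims1 was called higher throughout, by 1.58 to 3.26 in Il2ramut/mut mice and by 1.76 to 2.67 in WT mice, and a run of 10 after Bach2 was called lower in all 10 in Il2ramut/mut mice and in 9 in WT mice. Neighbouring probe sets can report 1 RNA, so members of a run are not independent.

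**Figure D4:**
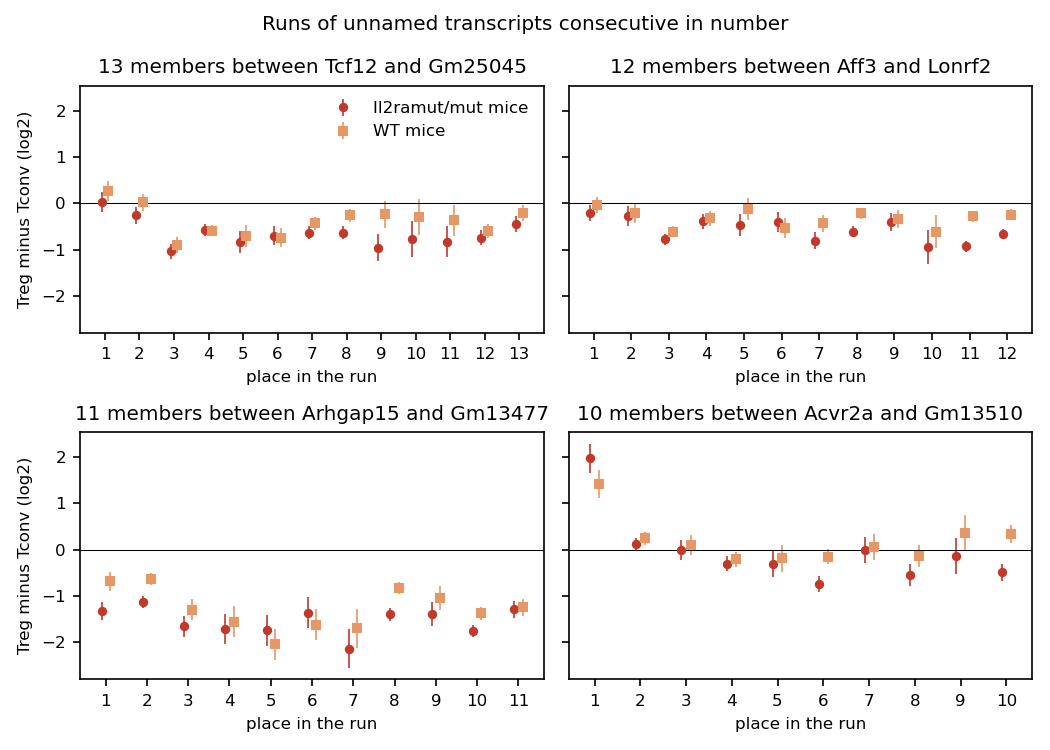
Difference of Treg and Tconv cells (y axis, log2, bars of 1 SE) by place in the 3 longest runs of consecutive numbers and in the first by ID of the 7 runs of 10 (x axis), for Il2ramut/mut and WT mice. The run after Arhgap15 lies below 0 throughout (-2.13 to -1.12 in Il2ramut/mut mice and -2.04 to -0.63 in WT mice), and in the run after Acvr2a only the first member lies well above 0 (1.98 and 1.42).

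Some unnamed transcripts could not be told apart by the array. 491 of them (6.20%) fell into 83 sets with identical values on all 10 arrays, which means shared probe content, so that the 7918 gave 7510 distinct profiles. In 52 of the sets the IDs named more than 1 chromosome. The largest held 63 transcripts, with TC0100000118 as its first ID, on 17 chromosomes and unplaced scaffolds. It read 10.25, 9.73 and 9.99 in Il2ramut/mut Treg arrays, 10.62, 10.47 and 10.26 in WT Treg arrays, 10.91 and 10.87 in Il2ramut/mut Tconv arrays, and 11.03 and 10.30 in WT Tconv arrays. The Il2ramut/mut Treg arrays were lowest, and the WT Tconv arrays spread over the range of the WT Treg arrays and above it. Treg and Tconv cells differed by -0.90 ± 0.21 (adjusted p = 0.0240) in Il2ramut/mut mice and by -0.22 (adjusted p = 0.625) in WT mice, and the same 63 IDs are counted as 63 of the calls in Il2ramut/mut mice above. With identical values counted once, the calls were 2040 in Il2ramut/mut mice and 1447 in WT mice. Of the 12 sets of 10 or more, 3 were called lower in Treg cells in Il2ramut/mut mice, none was called in WT mice and none between genotypes in Treg cells, where 11 of the 12 differences were negative (-0.69 to -0.06) and 1 was 0.04. Most unnamed transcripts leaned the same way between genotypes in Treg cells. There 64 of the 83 sets had a negative difference, and 2632 of the 7918 transcripts had a positive one.

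**Figure D5:**
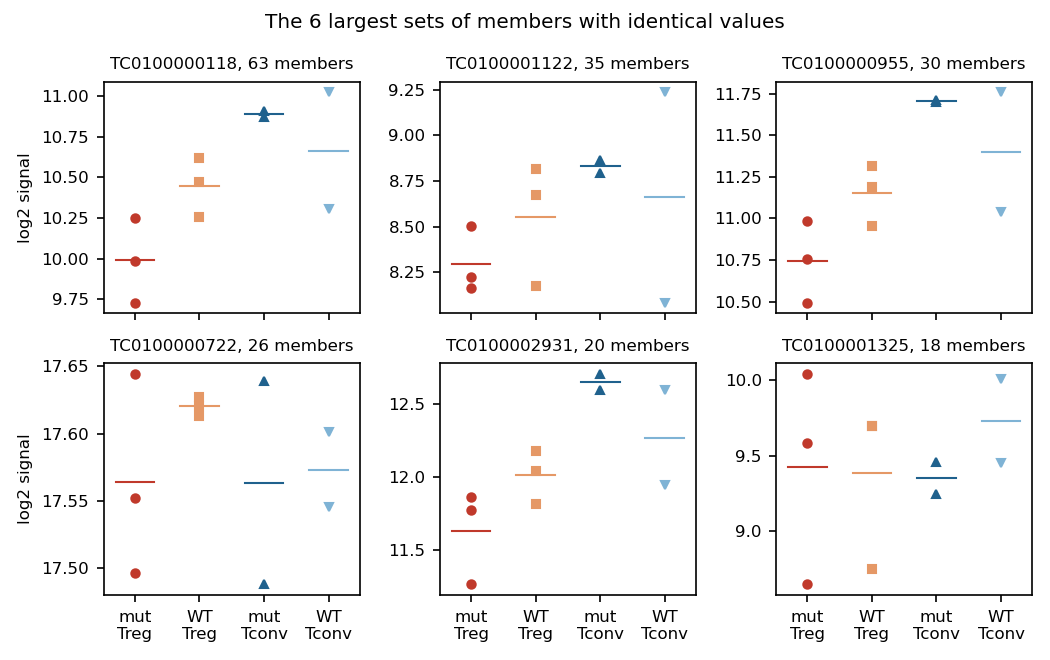
Log2 signal (y axis, with its own range in each panel) of the 6 largest sets of transcripts with identical values, by group (x axis; mut stands for Il2ramut/mut), 1 symbol per array and a line at the group mean. The set of 63 runs from 9.73 in an Il2ramut/mut Treg array to 11.03 in a WT Tconv array, whereas the set of 26 stays between 17.49 and 17.64 on all 10 arrays.

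By the chromosome in the ID, unnamed transcripts that reached 7 made up between 20.2% (chromosome 5) and 28.3% (chromosome 11) of all unnamed probe sets of chromosomes 1 to 19 and X. On the mitochondrial genome 15 of 19 did so, on scaffolds 51 of 101, and on chromosome Y 12 of 300. The samples were from females, and 4 of the 12 with a Y in the ID belong to a set of 30 with identical values on 14 chromosomes, so the array does not place their signal on Y. That set read 10.98, 10.49 and 10.76 in Il2ramut/mut Treg arrays, 11.31, 11.19 and 10.95 in WT Treg arrays, 11.71 and 11.70 in Il2ramut/mut Tconv arrays, and 11.76 and 11.04 in WT Tconv arrays. Treg and Tconv cells of Il2ramut/mut mice did not overlap in it, with a difference of -0.96 ± 0.21 (adjusted p = 0.0163). Among the mitochondrial transcripts TC0M00000012 read 17.83, 17.63 and 18.29 in Il2ramut/mut Treg arrays, 18.23, 18.54 and 18.30 in WT Treg arrays, 17.87 and 17.91 in Il2ramut/mut Tconv arrays, and 17.98 and 17.65 in WT Tconv arrays. The Treg genotypes overlapped, and the difference of -0.44 (adjusted p = 0.436) was within the spread. TSUnmapped00000095, whose ID gives no place in the genome, was higher in WT Treg than WT Tconv cells by 0.58 ± 0.10 (adjusted p = 0.00458), with 18.25, 17.98 and 18.03 against 17.52 and 17.49.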

How the data were processed

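The deposited table holds log2 signal values per probe set for 10 arrays (Affymetrix Mouse Transcriptome Array 1.0 Pico), made by the authors with Expression Console 1.4.1.46. The kind of normalization and the genome build were not given in the sources used here. Control probe sets (6732 of 72688) were left out, leaving 65956. Values were used as deposited. limma 3.58.1 (R 4.3.3; lmFit and eBayes, 4 group means, all 10 arrays, 6 residual degrees of freedom) was fitted to all 65956, with Benjamini-Hochberg adjustment over all of them and calls at an adjusted p under 0.05; only unnamed transcripts with a group mean of 7 or more were then read out. Gene symbols came from the platform table and were updated through RefSeq (30636 matched). The fit was tested on simulated data. The number of arrays limits the precision.

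The members and gene lists were chosen with earlier results of these data known. Named transcripts are the lowest p or largest difference in each comparison (10 and 8 a direction, 5 in Tconv cells), the extremes in level and stability, the members nearest the threshold, the 4 longest runs, those with unusual IDs and those near marker genes; the miRNA neighbours, the 55 calls beyond the first 10 a direction, the large identical sets and the other runs were chosen after their values were seen. Alternatives covered scaling, filter, prior, samples, replicate block, the methods' test (one-way ANOVA with a fold of 1.5 and p of 0.01), threshold and each array left out.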

Additional observations from a re-analysis of the deposited data

Results flagged for a closer look

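In 16 of the 125 unnamed transcripts named or called in the report, Il2ramut/mut and WT arrays moved in opposite directions in Treg and Tconv cells. The genotypes did not overlap in either cell type. The same held for 209 of all 7918. The 125 include the transcripts called between the genotypes in Treg cells, so the shares cannot be compared. With 2 arrays in each Tconv group, a lack of overlap there can easily arise by chance. Whether 16 exceeds what this choice of transcripts would give was not tested. No interaction term of these 16 passed the threshold (limma adjusted p of 0.0786 to 0.587), so a difference between the cell types was tested and not called. The values are the Treg difference minus the Tconv difference, Il2ramut/mut minus WT, on the log2 scale. Below 0 were TC0300000895, on the 3′ side of Cdc42se1 (-2.26), TC1500001375 (-1.72), TC0200003050 (-1.5), TC1200002055, on the 5′ side of Numb (-1.48), TC0200001388 (-1.29) and TC1600000334 (-1.16). Further ones below 0 were TC0300001331 (-1.13) and TC0300001332 (-1.12), both on the 3′ side of Lef1, TC0700001670 beside Pde3b (-1.07), TC0800000428 (-1.06), TC1400001413 (-1.03), TC1400001412 (-1.01) and the mitochondrial TC0M00000010 (-0.92). Above 0 were TC1000002738 (1.68), TC1300001912, next to Atxn1 (1.36), and TC0200004091, on the 5′ side of Ptprj (1.22). For TC0700001670 none of the 3 Il2ramut/mut Treg arrays and 1 of the 3 WT Treg arrays exceeded background, and for TC0200004091 neither of the 2 Il2ramut/mut Tconv arrays did, so in those cell types the genotypes differ between values at or near background. TC0300000895 read 7.98, 8.46 and 8.11 in Il2ramut/mut Treg arrays, 9.42, 9.13 and 9.86 in WT Treg arrays, 10.76 and 11.24 in Il2ramut/mut Tconv arrays, and 9.90 and 10.14 in WT Tconv arrays.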

How the results depend on the processing

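None of the 219 differences of single transcripts that were recomputed under the alternatives reversed. A change of filter, prior, test or p threshold, or a fit on the 2 groups' arrays, keeps the group means, so no reversal was possible there. Most of the 219 were also chosen because they were called, so the lack of reversals is little support. Of the 210 called ones 106 stayed called whichever array was left out. By comparison these were 4 of the 55 genotype calls in Treg cells and 0 of 1 in Tconv cells. Of the calls between Treg and Tconv cells, they were 56 of 90 in Il2ramut/mut mice and 46 of 64 in WT mice. Under every alternative 37 of the 210 stayed called, and 0 of the 55. Most differences that were not called, and those of runs not plotted, were not recomputed. Of the differences of Treg and Tconv cells given with a p, that of TC0200000221 in Il2ramut/mut mice lost its call without Il2ramut/mut Tconv replicate 2 (1.18, adjusted p = 0.0558). That of TC0200000782 in WT mice lost it without WT Treg replicate 2 or either WT Tconv array (1.28 to 1.47, adjusted p = 0.0683 to 0.128), that of TC0200000787 in Il2ramut/mut mice without Il2ramut/mut Treg replicate 3 or either Il2ramut/mut Tconv array (-0.81 to -0.67, adjusted p = 0.0613 to 0.118), and that of TC0100000118 without Il2ramut/mut Treg replicate 2 or 3 or either Il2ramut/mut Tconv array (-0.92 to -0.77, adjusted p = 0.0590 to 0.117). That of the set of 30 identical transcripts lost it without Il2ramut/mut Treg replicate 2 or either Il2ramut/mut Tconv array (-0.97 to -0.84, adjusted p = 0.0528 to 0.0884). For Il2ramut/mut against WT Treg cells the 55 calls became 108 with only probe sets at 7 or more tested, 30 with only the Treg arrays, 123 and 0 by the methods' test before and after Benjamini-Hochberg adjustment, 4 at an adjusted p under 0.01, and 6 to 47 with 1 array left out. With the replicate number as a block they were 30, of which 20 were among the 55. Deviations of arrays with the same number correlated at -0.01 to 0.06 between the Treg groups and -0.11 between the Tconv groups. Between Treg and Tconv arrays they correlated at 0.080 and 0.084 in WT mice, and at -0.009 and -0.057 in Il2ramut/mut mice. With 2 arrays in a Tconv group the deviations mirror each other, so the sign between the Tconv groups rests on the numbering. Whether the numbers pair the samples cannot be told from these values. A crossed pairing of the Tconv numbers, added after seeing the data, gave 39 calls in Treg and 0 in Tconv cells. For Il2ramut/mut against WT Tconv cells the 1 call became 0 with each array centred, with the block and at an adjusted p under 0.01, 28 and 0 by the methods' test before and after adjustment, 2 with a group mean above background as the rule, and 0 to 1 with 1 array left out; with only the Tconv arrays 1 other transcript was called. For Treg against Tconv cells in Il2ramut/mut mice the 2181 calls became 1013 and 240 by the methods' test before and after adjustment, 1334 at an adjusted p under 0.01 and 1459 to 2222 with 1 array left out; in WT mice the 1465 became 754, 163, 913 and 1048 to 1469. For the interaction the 0 calls became 1 with only probe sets at 7 or more tested and 0 to 1 with 1 array left out. The methods' test and the fit on the 2 groups' arrays give no interaction and were not run for it. The number of transcripts became 4196 with a threshold of 9. Identical values counted once and transcripts without a symbol in the study's lists were added after seeing the data. Groups had 3 arrays in Treg cells and 2 in Tconv cells, which limits the precision.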
